A study of Mus musculus with 20 samples.

Results

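Collagen chains other than the core vascular set were followed in cells sorted as endothelial from mouse ears treated with the hapten DNFB or with vehicle. The members are the genes whose symbol has the collagen alpha chain form (Col1a1 and the like) and that a probe set carrying exactly 1 gene symbol measured, without Col4a1, Col4a2, Col15a1 and Col18a1, the chains of vessel basement membrane. Of 44 such collagen genes on the array, 40 were members, among 22180 genes with such a probe set. Each gene is given by its probe set of highest mean over the 20 arrays. A member was tested if its value was above the median of the array on at least 4 arrays, and 31 of the 40 were. By type, 11 of 11 fibrillar chains, 2 of 7 network-forming chains and 18 of 22 chains of other types were tested. The 9 members left out were Col10a1, Col19a1, Col22a1, Col28a1, Col4a3, Col4a4, Col4a6, Col6a4 and Col8a2, whose log2 values lay between 2.55 and 3.92 over all arrays.

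Gene expression was measured on Affymetrix arrays in CD31+CD45-Ter119- cells sorted from collagenase-digested ears of NICD1-EC-OE mice (4 DNFB ears and 4 vehicle ears) and of control mice (6 DNFB ears and 6 vehicle ears). NICD1-EC-OE mice express a constitutively active intracellular domain of the receptor Notch1 from the Rosa26 locus in endothelial cells after tamoxifen. Their genotype label names Pdgfb-CreERT2 with R26-NICD, whereas the growth protocol names a CDH5-driven iCre, so the driver is given as both. The protocol gives 5 tamoxifen injections and a sensitisation with DNFB (a contact hapten) on days 0 and 1 with no exception for control mice, challenge of the ear on day 5, and harvest 24 hours later. The labels used here do not say which alleles the control mice carried, how old the mice were, or whether a DNFB ear and a vehicle ear came from 1 mouse. The p-values therefore measure the spread between these arrays. NICD1-EC-OE vehicle replicate 4 is a vehicle ear by its title and a DNFB ear by its description, and it was used as vehicle. Its values of Col12a1 (3.77), Col13a1 (4.54), Col8a1 (6.17) and Col6a3 (5.46) were below all NICD1-EC-OE DNFB arrays. Those of Col6a1 (7.27), Col6a2 (6.73) and Col7a1 (4.26) were above all of them. Its Col4a5 value of 3.06 and Col3a1 value of 5.96 were within their range (2.79 to 3.12 and 5.37 to 6.65). These chains were called in a test that counted this array as vehicle. Summed linear levels of myeloid markers were 148 to 224 in NICD1-EC-OE vehicle arrays, this one included, against 756 to 899 in NICD1-EC-OE DNFB arrays. The label was taken from the title and not from these values.

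Collagens are trimers of alpha chains. Fibrillar chains (types I, II, III, V, XI, XXIV and XXVII) build the banded fibrils of dermis, cartilage and vessel wall; network-forming chains (types IV, VIII and X) build sheets under epithelia and endothelium. Beaded filaments of type VI are assembled from 1 α1, 1 α2 and 1 large chain, usually α3; fibril-associated collagens (FACIT) coat the fibrils, transmembrane collagens span the cell membrane, and type VII forms the anchoring fibrils below the epidermis. Fibroblasts and mural cells make most interstitial collagen in skin, while endothelial cells are known mainly for basement membrane chains.

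Before the results, 3 features of the arrays bear on all of them. The array medians were 3.52 to 3.62 in the 8 NICD1-EC-OE arrays and 3.87 to 3.98 in the 12 control arrays, and the lowest value on an array was 1.18 to 1.30 and 0.412 to 0.590 in the same order. Xist ran from 8.47 to 9.07 in NICD1-EC-OE arrays and from 2.27 to 3.16 in control arrays, and Eif2s3y (Y-linked) from 2.11 to 2.79 and from 6.08 to 7.12, so that genotype, sex and array set cannot be told apart. Pecam1, which encodes the CD31 of the gate, averaged 11.48 and 11.72 in NICD1-EC-OE DNFB and vehicle ears and 11.51 and 11.72 in control DNFB and vehicle ears, and all 12 endothelial markers passed the filter. Of the markers of cells outside the gate, 10 of 10 keratinocyte markers passed it, with group means from 4.66 (Lor) to 11.64 (Krt14), and 10 of 11 fibroblast markers did, with group means from 3.60 (Pi16) to 11.04 (Dcn); Twist2 did not. Which sorted cells held the collagen RNA was not tested, and in a bulk sample fewer cells of a type and less RNA per cell cannot be told apart.

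DNFB challenge changed a minority of the collagen chains, and the same 4 were higher in both genotypes: Col12a1, Col13a1, Col8a1 and Col6a3. They are a FACIT chain, a transmembrane chain, a network-forming chain and the large chain of type VI. The share of all probe sets higher in both genotypes was not counted, so this overlap is no result about the members. In NICD1-EC-OE mice 4 of 31 chains were higher (12.9%) and 5 were lower (16.1%), against 20% and 18.1% of all 14886 probe sets tested. In control mice 4 were higher (12.9%) and 4 lower (12.9%), against 23.7% and 23.6% of all probe sets tested. The shares of the chains were below those of all probe sets in both directions in each genotype. With 31 chains tested, they are no result about the members. Their median log2 difference was -0.017 in NICD1-EC-OE mice (0.007 over all probe sets tested) and -0.013 in control mice (-0.001). All differences are log2 differences from limma with the standard error, and p-values are Benjamini-Hochberg adjusted over all probe sets tested, with a threshold of 0.05. With arrays centred on their medians, 5 chains were higher (21.4% of all probe sets tested) and 3 lower (16.1%) in NICD1-EC-OE mice, and with quantile normalization also 5 (19.9%) and 3 (16.6%); Col16a1 was added, and Col3a1 and Col7a1 were lost. In control mice the same 4 and 4 chains were called with each (23.3% and 23.2% of all with centring, 23.5% and 23.6% with quantile normalization).

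Col12a1, the alpha chain of the FACIT collagen XII found on fibrils of tissue under mechanical load, had the largest difference among the members. Its log2 values were 4.72, 5.32, 5.48 and 5.77 in NICD1-EC-OE DNFB ears, against 3.77, 3.84, 3.85 and 3.92 in NICD1-EC-OE vehicle ears. In control DNFB ears they had a lowest, median and highest value of 5.69, 6.14 and 6.55, against 4.15, 4.41 and 5.10 in control vehicle ears. Every DNFB array was above every vehicle array of its genotype. The log2 difference was 1.48 ± 0.22 in NICD1-EC-OE mice (2.79-fold, adjusted p = 2.55e-05, limma) and 1.62 ± 0.18 in control mice (3.08-fold, adjusted p = 3.85e-07, limma).

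Col13a1 encodes a transmembrane collagen known from cell adhesion sites and the neuromuscular junction. It read 5.46, 5.57, 5.62 and 5.84 in NICD1-EC-OE DNFB ears, against 4.54, 4.77, 4.79 and 4.99 in NICD1-EC-OE vehicle ears. Across control DNFB ears the lowest, median and highest values were 5.14, 5.89 and 6.27, against 4.51, 4.93 and 5.00 in control vehicle ears. The groups did not overlap in either genotype. DNFB ears differed from vehicle ears by a log2 difference of 0.85 ± 0.19 in NICD1-EC-OE mice (adjusted p = 0.00147, limma) and 0.98 ± 0.16 in control mice (adjusted p = 3.3e-05, limma).

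Col8a1, a short-chain network collagen of the subendothelium and of Descemet's membrane in the eye, read 6.29, 6.60, 6.61 and 6.80 in NICD1-EC-OE DNFB ears and 5.47, 5.59, 5.87 and 6.17 in NICD1-EC-OE vehicle ears. In control DNFB ears the lowest, median and highest values were 5.90, 6.77 and 7.38, against 4.92, 5.87 and 6.26 in control vehicle ears. The groups were apart in NICD1-EC-OE mice and overlapped in control mice. The log2 difference was 0.80 ± 0.29 in NICD1-EC-OE mice (adjusted p = 0.0318, limma) and 0.89 ± 0.23 in control mice (adjusted p = 0.00357, limma). The call in NICD1-EC-OE mice was lost without DNFB replicate 1, 2 or 4 or vehicle replicate 1 or 2 of that genotype (highest adjusted p = 0.0891), while that in control mice passed in all 20 fits that left out 1 array.

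**Figure D1:**
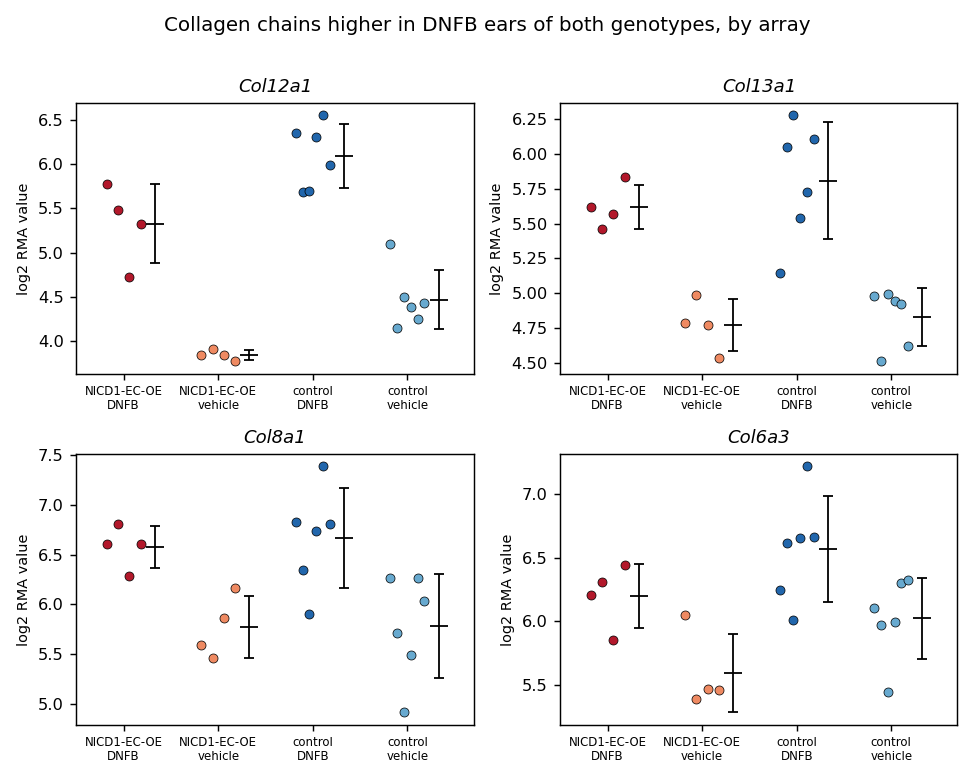
Log2 RMA value (vertical axis) of Col12a1, Col13a1, Col8a1 and Col6a3 on each of the 20 arrays by group (horizontal axis: NICD1-EC-OE DNFB, NICD1-EC-OE vehicle, control DNFB, control vehicle); the bar beside the points is the mean with 1 SD. The DNFB arrays of Col12a1 and Col13a1 lie above all vehicle arrays of the same genotype, and those of Col8a1 in control mice and of Col6a3 in both overlap with them.

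The 3 main chains of type VI did not move together. Col6a3, the large chain, was higher in DNFB ears of both genotypes, while Col6a1 was lower in both and Col6a2 was lower in NICD1-EC-OE mice. Col6a3 read 5.85, 6.21, 6.31 and 6.44 in NICD1-EC-OE DNFB ears, against 5.39, 5.46, 5.47 and 6.05 in NICD1-EC-OE vehicle ears. Across control DNFB ears its lowest, median and highest values were 6.01, 6.63 and 7.22, against 5.44, 6.05 and 6.33 in control vehicle ears. The groups overlapped in both genotypes. On the log2 scale the fitted difference was 0.61 ± 0.23 in NICD1-EC-OE mice (adjusted p = 0.0405, limma) and 0.54 ± 0.19 in control mice (adjusted p = 0.0204, limma). Neither call held in all 20 fits that left out 1 array. The call in control mice was lost without vehicle replicate 3 or DNFB replicate 5 (highest adjusted p = 0.059), and that in NICD1-EC-OE mice without DNFB replicate 1, 2 or 4 or vehicle replicate 2, 3 or 4 (highest adjusted p = 0.108).

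Col6a1 read 5.86, 6.09, 6.27 and 6.37 in NICD1-EC-OE DNFB ears, against 6.61, 7.20, 7.27 and 7.60 in NICD1-EC-OE vehicle ears. In control DNFB ears the lowest, median and highest values were 6.34, 6.39 and 6.78, against 6.68, 6.90 and 7.16 in control vehicle ears. In NICD1-EC-OE mice every DNFB array was below every vehicle array, and in control mice 1 DNFB array reached into the vehicle range. The log2 difference was -1.02 ± 0.17 in NICD1-EC-OE mice (0.492-fold, adjusted p = 7.59e-05, limma) and -0.44 ± 0.14 in control mice (0.739-fold, adjusted p = 0.0142, limma). A further Col6a1 probe set, of lower mean, had log2 differences of -0.45 ± 0.22 in NICD1-EC-OE mice (adjusted p = 0.124, limma) and -0.16 ± 0.18 in control mice (adjusted p = 0.496, limma) and passed in neither; with the mean of both probe sets, the call in control mice was lost.

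Col6a2 read 6.06, 6.41, 6.46 and 6.53 in NICD1-EC-OE DNFB ears, against 6.73, 6.86, 7.09 and 7.15 in NICD1-EC-OE vehicle ears, with no overlap. Across control DNFB ears the lowest, median and highest values were 6.35, 6.76 and 7.02, against 6.74, 6.94 and 7.32 in control vehicle ears, with overlap. Its log2 difference was -0.59 ± 0.17 in NICD1-EC-OE mice (adjusted p = 0.00746, limma) and -0.31 ± 0.14 in control mice (adjusted p = 0.0667, limma), where it did not pass. Within an array, where a scale common to all probe sets cancels, Col6a3 minus Col6a1 had a median of 0.08 in NICD1-EC-OE DNFB ears (-0.16 to 0.22), against -1.68 in NICD1-EC-OE vehicle ears (-1.81 to -1.14). In control mice that median was 0.27 in DNFB ears (-0.48 to 0.44) and -0.87 in vehicle ears (-1.30 to -0.49). The zero of this difference has no meaning, since probe sets differ in brightness, but its shift describes how far the chains parted. Of the other type VI chains tested, neither Col6a5 nor Col6a6 passed in either genotype.

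The stretches upstream of the chains that moved are shown because 3 of them rose together and the type VI chains moved apart. Each is the 250 bases before the annotated start, 5′ to 3′, from RefSeq on GRCm38.p6, all on the minus strand: Col8a1 at chr16:57754738-57754987, Col13a1 at chr10:61979109-61979358, Col6a3 at chr1:90843972-90844221, Col6a1 at chr10:76726045-76726294 and Col6a2 at chr10:76623631-76623880. Capitals mark matches on either strand to the TATA box (TATAAA), the CCAAT box, the GC box (written GGGCGG), the AP-1 motif (written TGANTCA, where N is any base) and the core bound by RBPJ, the DNA-binding partner of the Notch intracellular domain (written TGGGAA). RefSeq promoter records were found for 31 of the 40 members; Col12a1 is named only.
Col8a1: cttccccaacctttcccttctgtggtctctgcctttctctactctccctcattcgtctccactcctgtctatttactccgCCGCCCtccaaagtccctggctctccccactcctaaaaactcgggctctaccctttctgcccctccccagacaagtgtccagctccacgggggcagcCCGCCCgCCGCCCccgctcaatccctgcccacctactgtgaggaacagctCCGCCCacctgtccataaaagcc
Col13a1: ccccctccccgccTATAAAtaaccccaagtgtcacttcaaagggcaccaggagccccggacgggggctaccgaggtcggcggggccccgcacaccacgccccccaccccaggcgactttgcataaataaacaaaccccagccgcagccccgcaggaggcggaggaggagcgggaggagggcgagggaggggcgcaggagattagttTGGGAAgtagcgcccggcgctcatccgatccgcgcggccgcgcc
Col6a3: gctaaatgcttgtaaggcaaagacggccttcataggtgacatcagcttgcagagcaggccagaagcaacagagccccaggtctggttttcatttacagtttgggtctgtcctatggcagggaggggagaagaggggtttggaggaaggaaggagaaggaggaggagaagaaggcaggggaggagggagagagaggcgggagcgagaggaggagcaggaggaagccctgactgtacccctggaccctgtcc
Col6a1: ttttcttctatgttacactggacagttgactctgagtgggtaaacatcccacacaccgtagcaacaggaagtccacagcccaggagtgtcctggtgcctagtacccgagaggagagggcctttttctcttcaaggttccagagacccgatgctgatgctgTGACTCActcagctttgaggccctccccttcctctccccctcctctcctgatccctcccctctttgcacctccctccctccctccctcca
Col6a2: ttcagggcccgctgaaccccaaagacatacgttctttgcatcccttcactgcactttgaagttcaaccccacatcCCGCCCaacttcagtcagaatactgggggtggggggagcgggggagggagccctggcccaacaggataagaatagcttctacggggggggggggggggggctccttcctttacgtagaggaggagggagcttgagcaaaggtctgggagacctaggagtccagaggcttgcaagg

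The 5 stretches shared no arrangement of these motifs. That of Col8a1 held 4 GC boxes, at 170, 73, 66 and 23 bases before the start, and that of Col6a2 held 1, at 175 bases. Col13a1 had a TATA box match at 237 bases and an RBPJ core match at 44 bases. Col6a1 had the sole AP-1 match, at 90 bases, among the 31 members with a record, and Col6a3 had no match to any of the 5 motifs. Over the 31 members, the RBPJ core was in 35.5%, against 21.6% of all 32851 promoter stretches of this length, the GC box in 61.3% against 32.7%, and the TATA box in 16.1% against 12.4%. The CCAAT box was in 29.0% against 33.8%, and the AP-1 motif in 3.23% against 6.75%. A match of such short letters is a description of the sequence and no evidence of binding.

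Among the 11 fibrillar chains, none was higher in DNFB ears and 1 was lower in each genotype: Col3a1 in NICD1-EC-OE mice and Col5a3 in control mice. Over all probe sets tested, 20% were higher and 18.1% lower in NICD1-EC-OE mice, and 23.7% and 23.6% in control mice. With 11 chains, such counts are no result about the fibrillar type. The median log2 difference of these chains was -0.017 in NICD1-EC-OE mice and -0.013 in control mice. The chains of type I, the main collagen of dermis, did not pass in either genotype. Col1a1 read 6.55, 6.84, 7.56 and 7.68 in NICD1-EC-OE DNFB ears, against 6.78, 6.91, 7.00 and 7.35 in NICD1-EC-OE vehicle ears. In control DNFB ears its lowest, median and highest values were 6.81, 7.58 and 8.31, against 6.26, 7.47 and 7.66 in control vehicle ears. The DNFB arrays spread over more than the vehicle range in NICD1-EC-OE mice and overlapped with it in control mice. The log2 difference of Col1a1 was 0.15 ± 0.33 in NICD1-EC-OE mice (adjusted p = 0.773, limma) and 0.41 ± 0.27 in control mice (adjusted p = 0.22, limma), and that of Col1a2 was -0.25 ± 0.23 (adjusted p = 0.425, limma) and -0.04 ± 0.19 (adjusted p = 0.872, limma) in the same order.

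Col3a1, the fibrillar chain of extensible tissue and vessel wall, read 5.37, 5.47, 6.07 and 6.65 in NICD1-EC-OE DNFB ears, against 5.96, 6.53, 6.77 and 7.21 in NICD1-EC-OE vehicle ears. The groups overlapped. The log2 difference was -0.73 ± 0.28 (adjusted p = 0.0437, limma); it was -0.68 with an adjusted p of 0.0631 when arrays were centred on their medians, and it was lost without any 1 of NICD1-EC-OE DNFB replicates 1, 3 and 4, NICD1-EC-OE vehicle replicates 1, 2 and 3 and control vehicle replicate 1 (highest adjusted p = 0.162). In control mice it was -0.40 ± 0.23 (adjusted p = 0.158, limma).

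Col5a3, a minor chain of the fibril-nucleating type V, had a lowest, median and highest value of 5.02, 5.22 and 5.51 in control DNFB ears, against 5.51, 5.77 and 5.94 in control vehicle ears. The ranges overlapped by 1 array at the edge. DNFB ears differed from vehicle ears by a log2 difference of -0.49 ± 0.12 (0.71-fold, adjusted p = 0.0018, limma) and passed in all 20 fits that left out 1 array. In NICD1-EC-OE mice Col5a3 read 4.86, 5.11, 5.13 and 5.47 in DNFB ears, against 5.12, 5.20, 5.29 and 5.71 in vehicle ears, a log2 difference of -0.19 ± 0.15 (adjusted p = 0.34, limma). The other type V chains did not pass: Col5a1 had log2 differences of -0.34 ± 0.19 and -0.27 ± 0.16 in NICD1-EC-OE and control mice, and Col5a2 of -0.45 ± 0.22 and -0.26 ± 0.18. The cartilage chains Col2a1, Col11a1 and Col11a2 and the 2 late-described fibrillar chains Col24a1 and Col27a1 did not pass in either genotype either, with log2 differences between -0.02 and 0.36.

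**Figure D2:**
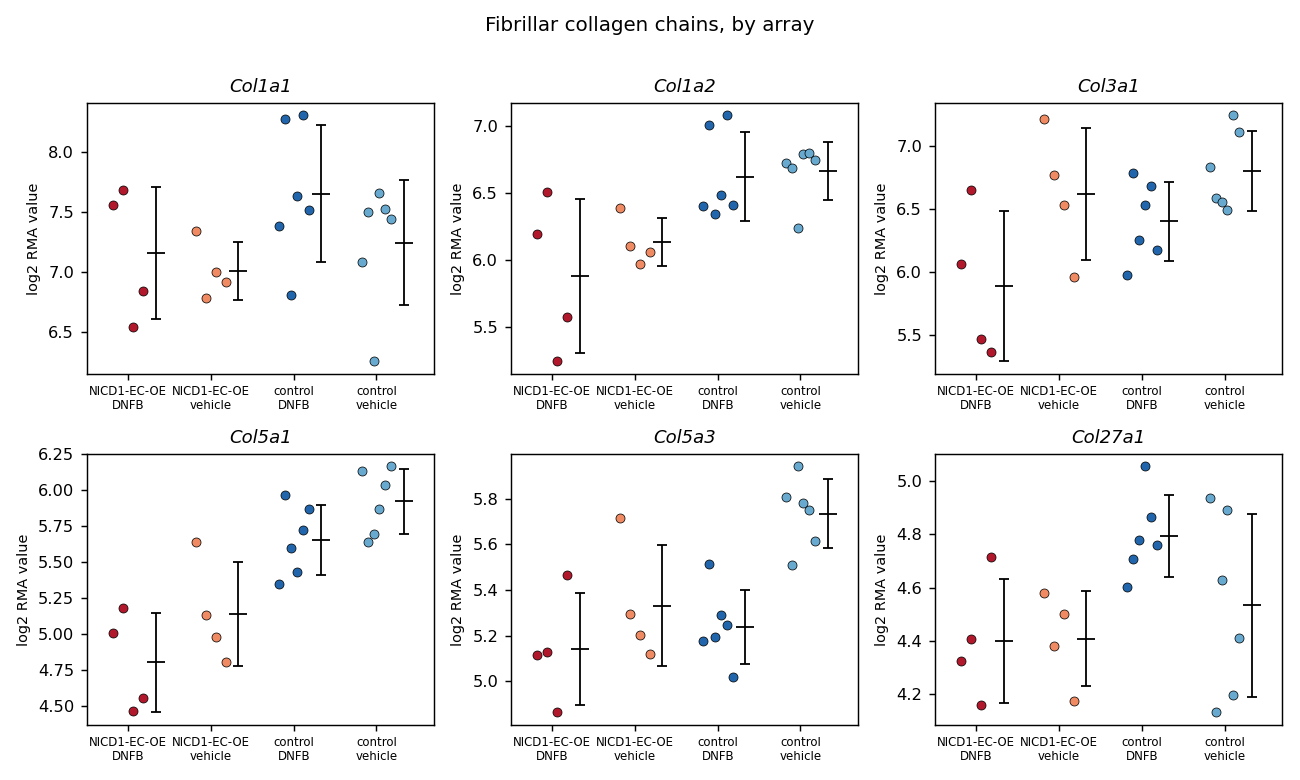
Log2 RMA value (vertical axis) of 6 fibrillar chains on each of the 20 arrays by group (horizontal axis), with the mean and 1 SD beside the points. Col5a3 is lower in control DNFB than in control vehicle arrays, and the type I chains overlap between DNFB and vehicle arrays of the same genotype.

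Of the 2 network-forming chains tested, Col8a1 is described above and Col4a5 was lower in DNFB ears of NICD1-EC-OE mice. Col4a5, a type IV chain of epidermal, kidney and smooth muscle basement membrane, read 2.79, 3.07, 3.08 and 3.12 in NICD1-EC-OE DNFB ears, against 3.06, 3.75, 3.98 and 4.00 in NICD1-EC-OE vehicle ears. Its value was above the array median on 3 NICD1-EC-OE vehicle arrays and 1 control vehicle array and on no DNFB array, so it entered the test only through the groups where it is high, and its call is no support for a difference of the members. With no filter it was also called (adjusted p = 0.00718, limma). The log2 difference was -0.68 ± 0.18 in NICD1-EC-OE mice (adjusted p = 0.00437, limma) and -0.29 ± 0.14 in control mice (adjusted p = 0.111, limma), where DNFB ears had a median of 3.21 and vehicle ears one of 3.45. The core vascular type IV chain Col4a1 went the other way, with log2 differences of 0.90 ± 0.09 in NICD1-EC-OE mice (adjusted p = 2.79e-07, limma) and 0.62 ± 0.08 in control mice (adjusted p = 1.11e-06, limma).

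Col7a1, the chain of the anchoring fibrils that keratinocytes and fibroblasts make, read 3.46, 3.51, 3.64 and 3.68 in NICD1-EC-OE DNFB ears, against 3.77, 3.97, 4.08 and 4.26 in NICD1-EC-OE vehicle ears. Across control DNFB ears its lowest, median and highest values were 3.78, 4.18 and 4.65, against 4.29, 4.67 and 4.99 in control vehicle ears. The groups were apart in NICD1-EC-OE mice and overlapped in control mice. On the log2 scale the fitted difference was -0.45 ± 0.17 in NICD1-EC-OE mice (adjusted p = 0.0453, limma) and -0.49 ± 0.14 in control mice (adjusted p = 0.00692, limma). The first of these was lost when arrays were centred (adjusted p = 0.0704) and without any 1 of 11 arrays: the 4 NICD1-EC-OE DNFB arrays, NICD1-EC-OE vehicle replicates 2, 3 and 4, control DNFB replicate 4 and control vehicle replicates 1, 3 and 4 (highest adjusted p = 0.137). Among the FACIT chains, Col9a1, a chain of the cartilage collagen IX, was lower in control DNFB ears, with a lowest, median and highest value of 3.70, 4.14 and 4.37 against 4.03, 4.48 and 4.67 in control vehicle ears. That log2 difference of -0.35 ± 0.13 (adjusted p = 0.0335, limma) was lost without any 1 of control DNFB replicates 2, 3 and 6 and control vehicle replicates 1, 5 and 6 (highest adjusted p = 0.0873), and also with no filter (0.0536), with trended and robust variances (0.06) and with only the groups compared (0.0655).

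The remaining FACIT and transmembrane chains did not pass in either DNFB comparison. The FACIT chains Col9a2, Col9a3, Col14a1, Col16a1 and Col20a1 had log2 differences between -0.13 and 0.30. Col16a1 passed in NICD1-EC-OE mice when arrays were centred (0.34, adjusted p = 0.0445). Col17a1, the hemidesmosomal collagen of basal keratinocytes, read 5.48, 5.58, 5.76 and 6.06 in NICD1-EC-OE DNFB ears, against 6.12, 6.23, 6.25 and 6.40 in NICD1-EC-OE vehicle ears. Although these groups did not overlap, the log2 difference of -0.53 ± 0.21 missed the threshold (adjusted p = 0.0575, limma). In control mice the difference was 0.08 ± 0.18 (adjusted p = 0.73, limma). Col23a1 and Col25a1 had log2 differences between -0.16 and 0.29. Col26a1, the unclassified chain, had log2 differences of 0.08 ± 0.20 in NICD1-EC-OE mice and -0.05 ± 0.16 in control mice and passed in neither.

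**Figure D3:**
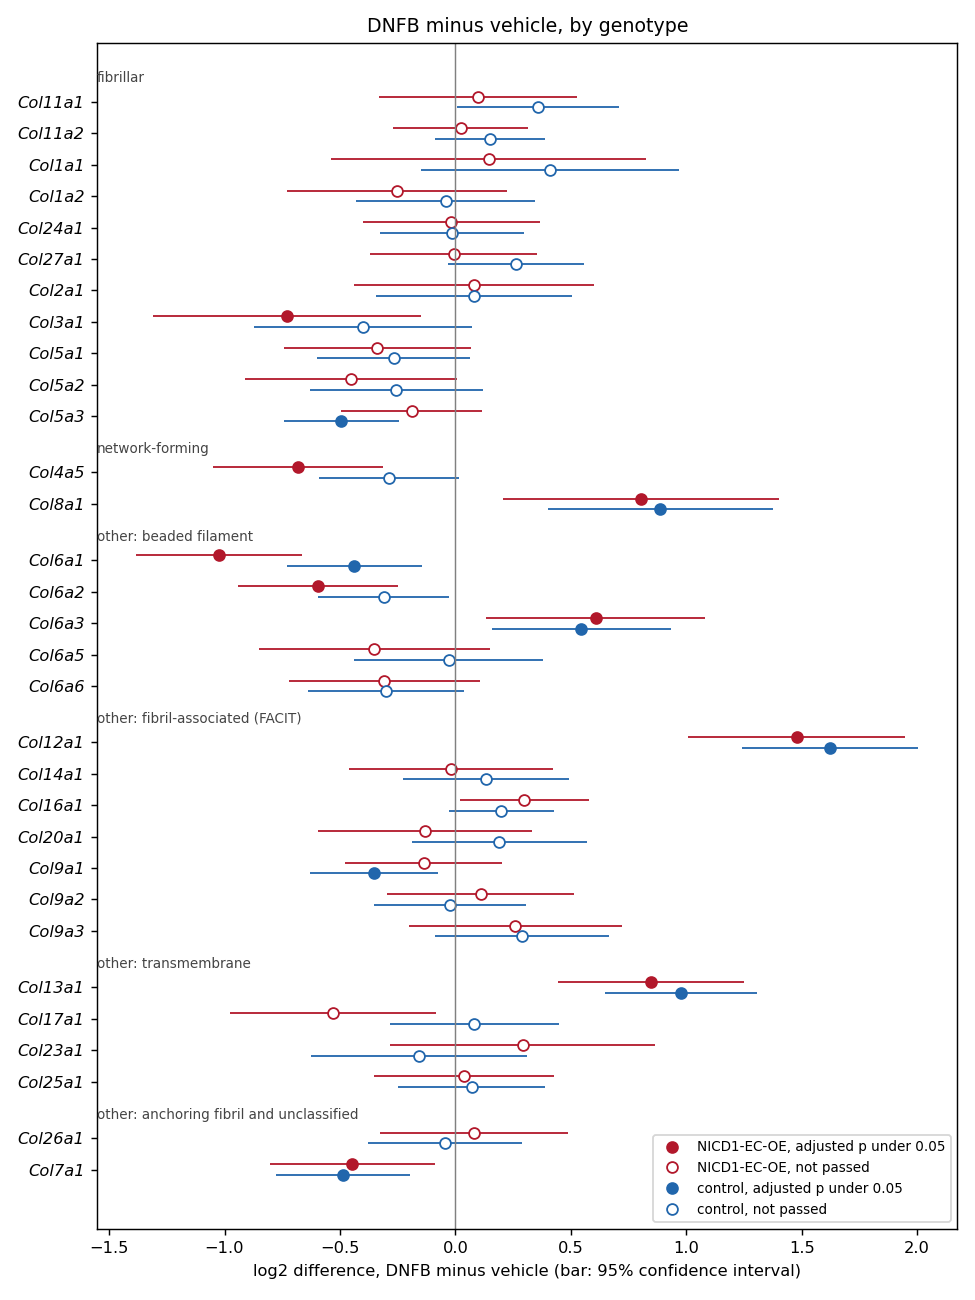
Log2 difference, DNFB minus vehicle (horizontal axis), of the 31 tested chains by type, with 95% confidence intervals, in NICD1-EC-OE mice (upper point of each pair) and control mice (lower point); filled points have an adjusted p under 0.05. Col12a1, Col13a1, Col8a1 and Col6a3 lie right of 0 in both genotypes, and Col6a1 and Col7a1 lie left of 0 in both.

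The difference of the DNFB effects between genotypes passed for none of the 31 chains (limma, lowest adjusted p = 0.344), while 1 probe set of 14886 was called in each direction (0.00672% each). At an unadjusted p under 0.05 it held 2 chains, Col6a1 and Col17a1, and 1578 of all probe sets tested. For Col6a1 the effect in NICD1-EC-OE mice minus that in control mice was -0.59 (95% confidence interval -1.05 to -0.12, adjusted p = 0.344, limma), and for Col17a1 it was -0.61 (-1.19 to -0.03, adjusted p = 0.441, limma). The further Col6a1 probe set had -0.29 ± 0.29 (adjusted p = 0.77, limma). The highest value in the other direction was that of Col23a1, at 0.45 (-0.29 to 1.19, adjusted p = 0.69, limma). A chain past the threshold in 1 genotype only, such as Col6a2, Col4a5 or Col5a3, is therefore not shown to respond differently in the other. For Col12a1 the interval of the difference, -0.75 to 0.46 includes 0 and covers differences of either sign.

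Comparisons between the genotypes depended on how the arrays were scaled. As deposited, the median of all probe sets tested was lower in NICD1-EC-OE than in control arrays by a log2 difference of -0.272 in DNFB ears and -0.282 in vehicle ears. In DNFB ears 11 of 31 chains were lower (35.5%) and none was higher, against 35.1% and 5.45% of all probe sets tested. In vehicle ears 9 were lower (29.0%) and none was higher, against 33.0% and 2.88%. With each array centred on its median, 4 chains were lower (12.9%) and 2 higher (6.45%) in DNFB ears, against 8.12% and 20.7% of all probe sets tested, and 1 was lower (3.23%) and 2 higher (6.45%) in vehicle ears, against 6.54% and 11.9%. With quantile normalization 4 were lower and 1 higher in DNFB ears, against 11.9% of all in each direction, and 2 were lower and 1 higher in vehicle ears, against 9.35% and 6.85%. A chain is described below as lower only where it was called as deposited, with centring and with quantile normalization of all arrays.

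Chains lower under all 3 scalings were Col9a1, Col11a2, Col17a1 and Col20a1 in DNFB ears and Col9a1 alone in vehicle ears. The share of all probe sets lower under all 3 was not counted, so these counts are no result about the members. Col9a1 read 3.21, 3.29, 3.34 and 3.39 in NICD1-EC-OE DNFB ears, against a lowest, median and highest value of 3.70, 4.14 and 4.37 in control DNFB ears. It read 3.23, 3.29, 3.57 and 3.69 in NICD1-EC-OE vehicle ears, against 4.03, 4.48 and 4.67 in control vehicle ears. No NICD1-EC-OE array reached the control arrays of the same treatment. The log2 difference in vehicle ears was -0.997 ± 0.15 as deposited (adjusted p = 8.03e-05, limma), -0.67 with centring (adjusted p = 0.00421, limma) and -0.66 with quantile normalization (adjusted p = 0.00472, limma). In DNFB ears it was -0.78, -0.41 and -0.45 (adjusted p = 0.000512, 0.0457 and 0.0322, limma) in that order of scalings.

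Col11a2, the α2 chain of the cartilage collagen XI, had a log2 difference in DNFB ears of -0.77 as deposited (adjusted p = 0.000162, limma), -0.40 with centring (adjusted p = 0.0193) and -0.46 with quantile normalization (adjusted p = 0.0107). It read 3.11, 3.22, 3.23 and 3.49 in NICD1-EC-OE DNFB ears, all below the medians of their arrays, against 3.59, 4.08 and 4.39 (lowest, median and highest) in control DNFB ears. Col11a2 was above the array median on 7 arrays, all control, so it entered the test only through the genotype where it is high. With no filter it was also called (adjusted p = 0.000249, limma). Col9a1 was above it on 10 control arrays and 2 NICD1-EC-OE arrays. It too therefore entered the test only through the genotype where it is high. Without a filter Col9a1 was also called in DNFB ears (adjusted p = 0.000708, limma) and in vehicle ears (adjusted p = 0.00012, limma). The calls of Col11a2 and Col9a1 are no support for a difference of the members. Col20a1, a little studied FACIT chain, had differences of -0.97, -0.60 and -0.62 in the same order of scalings (adjusted p = 0.0011, 0.0267 and 0.0319, limma). It read 3.28, 3.36, 3.47 and 4.42 in NICD1-EC-OE DNFB ears and 4.21, 4.61 and 5.01 (lowest, median and highest) in control DNFB ears. The lowest values of the 2 array sets differed as given above, and their part in these low chains was not tested.

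Col17a1 was the one chain of the 4 that lay well above the array medians in every group. It read 5.48, 5.58, 5.76 and 6.06 in NICD1-EC-OE DNFB ears, against a lowest, median and highest value of 6.18, 6.75 and 7.25 in control DNFB ears, with no overlap. The log2 difference was -1.02 ± 0.20 as deposited (0.494-fold, adjusted p = 0.00056, limma), -0.65 with centring (adjusted p = 0.0173) and -0.72 with quantile normalization (adjusted p = 0.0138). In vehicle ears it was -0.41 ± 0.20 as deposited (adjusted p = 0.11, limma). Beside it, of 10 keratinocyte markers tested in DNFB ears, 2 were lower and none higher as deposited, and 1 was lower and 1 higher with centring. Of all probe sets tested, 35.1% were lower and 5.45% higher as deposited, and 8.12% and 20.7% with centring. The summed linear level of those markers ran from 3578 to 5514 in NICD1-EC-OE DNFB ears and from 3915 to 8827 in control DNFB ears. The part of keratinocytes in the difference of Col17a1 was not tested.

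Chains called higher in NICD1-EC-OE mice depended on the scaling. In DNFB ears Col9a2 had a log2 difference of 0.19 ± 0.18 as deposited (adjusted p = 0.41, limma), 0.56 with centring (adjusted p = 0.0225) and 0.59 with quantile normalization (adjusted p = 0.0186). Col23a1, a transmembrane collagen, had 0.42 ± 0.25 as deposited (adjusted p = 0.188, limma), 0.79 with centring (adjusted p = 0.0245) and 0.69 with quantile normalization (adjusted p = 0.0536). In vehicle ears Col6a1 had 0.27 ± 0.16 as deposited (adjusted p = 0.18, limma), 0.60 with centring (adjusted p = 0.014) and 0.48 with quantile normalization (adjusted p = 0.0399). The further Col6a1 probe set had -0.05 ± 0.20 there as deposited (adjusted p = 0.872, limma). In the same ears and order of scalings Col4a5 had 0.18 (adjusted p = 0.398), 0.51 (adjusted p = 0.0401) and 0.47 (adjusted p = 0.0683). The remaining deposited calls, all lower and all lost with both other scalings except Col11a2 in vehicle ears, were Col12a1, Col16a1, Col1a2, Col2a1, Col5a1, Col6a6 and Col7a1 in DNFB ears and Col12a1, Col16a1, Col20a1, Col5a1, Col5a3, Col6a6, Col7a1 and Col11a2 in vehicle ears. Col11a2 in vehicle ears was called as deposited (-0.64, adjusted p = 0.000897, limma) and with quantile normalization (-0.37, adjusted p = 0.0447), and not with centring (-0.32, adjusted p = 0.0771). A further Col1a2 probe set, of lower mean, had -0.41 ± 0.17 in DNFB ears as deposited (adjusted p = 0.0661, limma) and did not pass. In vehicle ears it had -0.52 ± 0.17 as deposited (adjusted p = 0.0253, limma) and passed, where the one used for Col1a2 did not. The core vascular chain Col18a1 had 1.44 as deposited and 1.82 with centring in DNFB ears, higher with each.

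**Figure D4:**
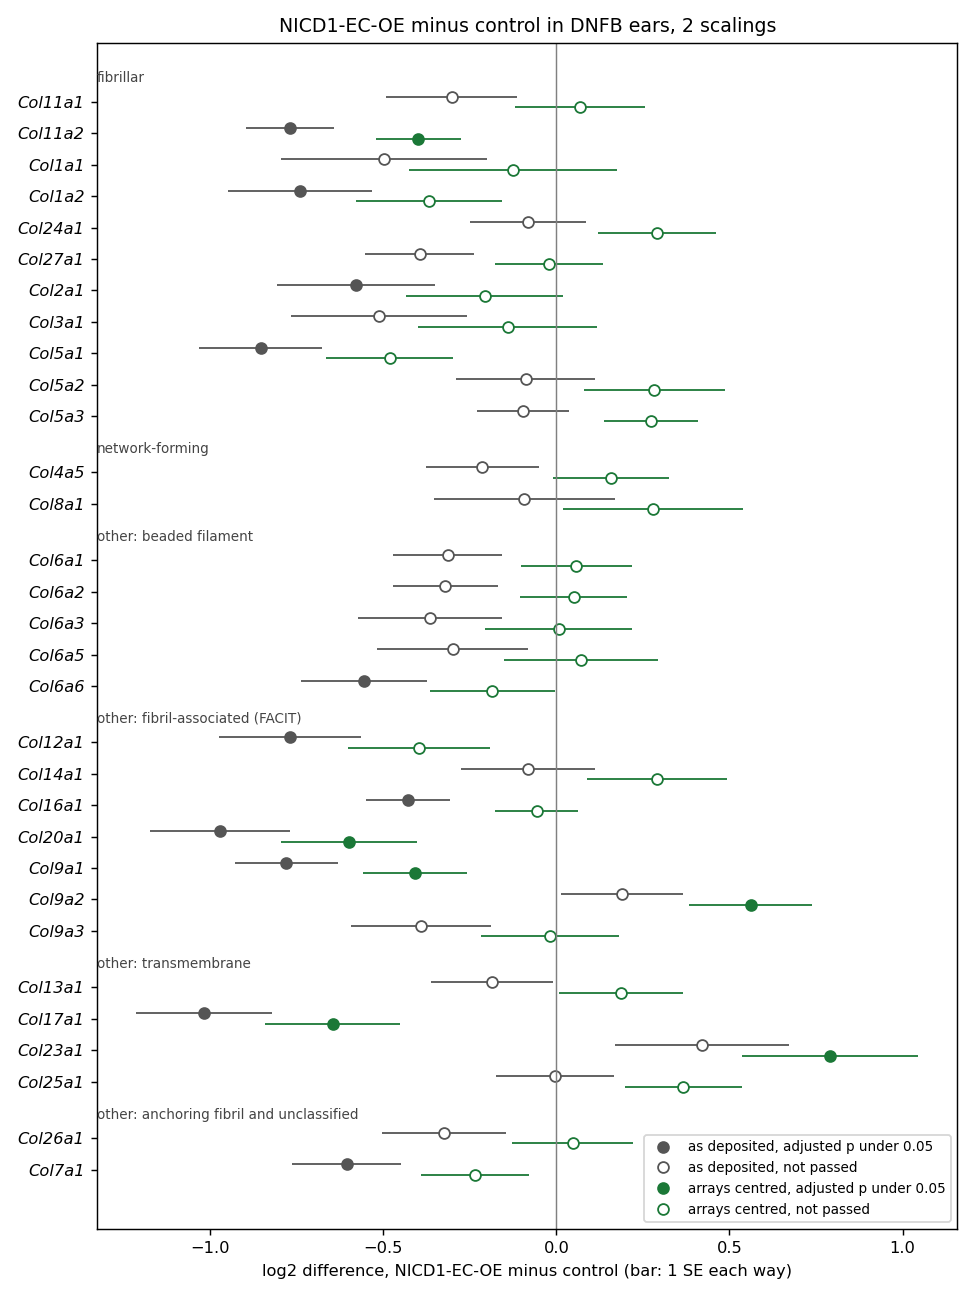
Log2 difference, NICD1-EC-OE minus control in DNFB ears (horizontal axis), of the 31 tested chains by type, as deposited (upper point of each pair) and with arrays centred on their medians (lower point); bars are 1 SE each way and filled points have an adjusted p under 0.05. Centring moves every chain to the right, and Col9a1, Col11a2, Col17a1 and Col20a1 are filled on the left under both.

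**Figure D5:**
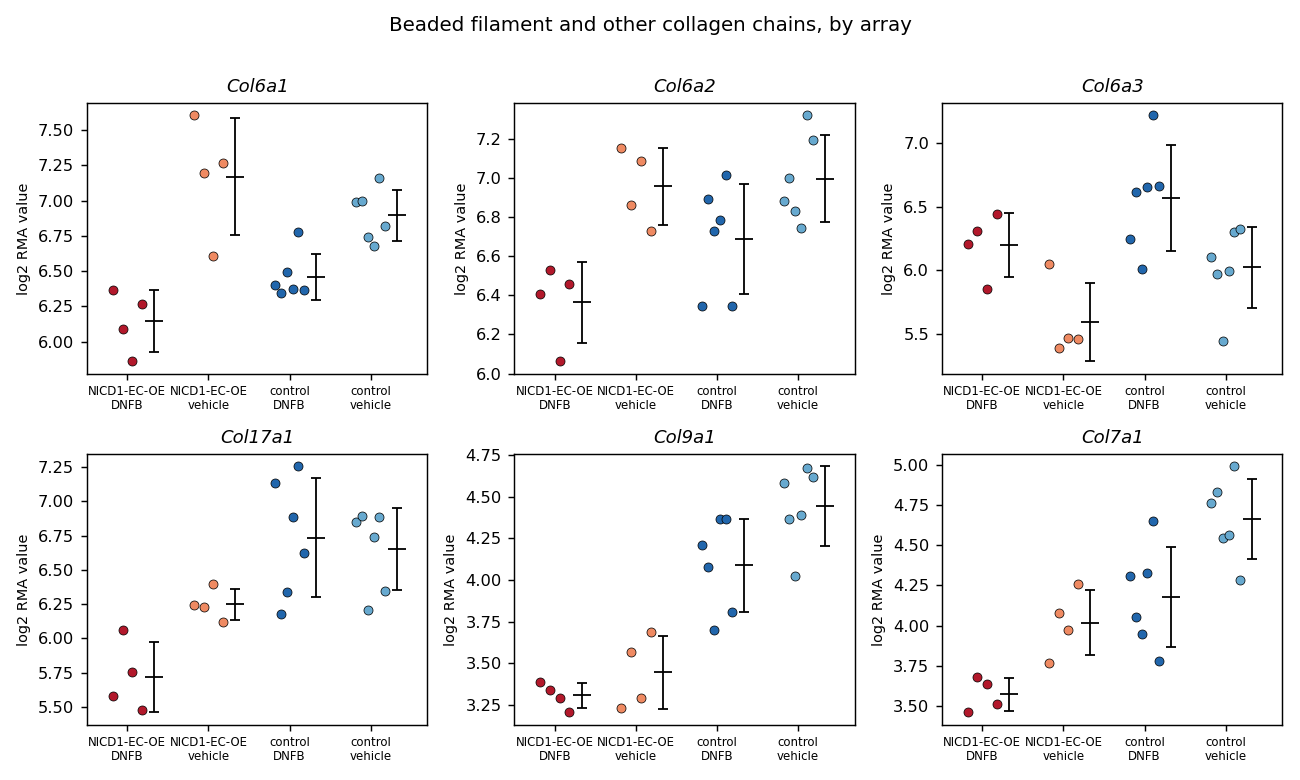
Log2 RMA value (vertical axis) of Col6a1, Col6a2, Col6a3, Col17a1, Col9a1 and Col7a1 on each of the 20 arrays by group (horizontal axis), with the mean and 1 SD beside the points. Col6a1 and Col6a2 are lower and Col6a3 is higher in NICD1-EC-OE DNFB than in NICD1-EC-OE vehicle arrays, and Col9a1 is lower in NICD1-EC-OE than in control arrays.

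Genes that modify and crosslink collagen included the lysyl oxidases Loxl1 and Loxl4, higher in DNFB ears of both genotypes. Of 26 biosynthesis and processing genes tested, 7 were higher and 2 lower in NICD1-EC-OE mice, and 8 were higher and 4 lower in control mice. Over all probe sets tested the shares were 20% higher and 18.1% lower in NICD1-EC-OE mice and 23.7% and 23.6% in control mice, to which the list is near. Their median log2 difference was 0.175 and 0.137 in the same order. Loxl1 and Loxl4, lysyl oxidases that crosslink collagen and elastin, had log2 differences of 1.98 ± 0.16 and 2.64 ± 0.27 in NICD1-EC-OE mice (adjusted p = 1.18e-08 and 2.2e-07, limma). In control mice they had 2.14 ± 0.13 and 2.04 ± 0.22 (adjusted p = 1.14e-10 and 2.1e-07, limma). Creb3l1, a membrane-bound transcription factor known to drive procollagen genes in bone, had 1.61 ± 0.21 in NICD1-EC-OE mice (adjusted p = 5.48e-06, limma) and 1.47 ± 0.17 in control mice (adjusted p = 7.56e-07, limma). The collagen galactosyltransferase gene Colgalt2 was lower in both, at -1.51 ± 0.14 in NICD1-EC-OE mice (adjusted p = 4.05e-08, limma) and -1.57 ± 0.11 in control mice (adjusted p = 6.78e-10, limma). Among 13 fibril-associated proteoglycans and glycoproteins, 2 were higher and 3 lower in NICD1-EC-OE mice and 2 higher and 2 lower in control mice. Thbs1, a matricellular glycoprotein, had 1.62 ± 0.17 in NICD1-EC-OE mice and 1.58 ± 0.14 in control mice, Aspn (asporin) had -2.0 ± 0.19 and -2.06 ± 0.16, and Prelp had -1.62 ± 0.16 and -1.11 ± 0.13.

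Of 8 collagen receptors tested, 4 were higher and 1 lower in NICD1-EC-OE mice, and 5 were higher and 2 lower in control mice, against 20% and 18.1% and against 23.7% and 23.6% of all probe sets tested. Gp6, the platelet collagen receptor, had log2 differences of 1.26 ± 0.25 in NICD1-EC-OE mice (adjusted p = 0.000475, limma) and 1.09 ± 0.21 in control mice (adjusted p = 0.000174, limma). Ddr2, a receptor tyrosine kinase for fibrillar collagen, had 0.48 ± 0.15 and 0.69 ± 0.12 in the same order (adjusted p = 0.0153 and 9.6e-05, limma). Itgb1, the β1 integrin subunit, had 0.66 ± 0.10 in NICD1-EC-OE mice (adjusted p = 2.11e-05, limma) and 0.66 ± 0.08 in control mice (adjusted p = 1.17e-06, limma). Its collagen-binding partner Itga2 had 0.33 ± 0.20 in NICD1-EC-OE mice (adjusted p = 0.208, limma) and 0.85 ± 0.16 in control mice (adjusted p = 0.000193, limma). The receptors called lower were Adgrg1 in both genotypes and the integrin subunit gene Itga1 in control mice. Of the 4 core vascular chains, 3 were higher in both genotypes and 1, Col15a1, was lower in control mice. Notch1 had log2 means of 9.76 and 9.71 in NICD1-EC-OE DNFB and vehicle ears, against 9.76 and 9.82 in control DNFB and vehicle ears. Whether its probe set reads the transgene is not known here, so it does not check the genotype label.

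Markers of cell types were also compared between DNFB and vehicle ears. The counts below stand against 20% of all probe sets called higher and 18.1% lower in NICD1-EC-OE mice, and 23.7% and 23.6% in control mice. Of 11 pericyte and smooth muscle markers, 8 were lower in NICD1-EC-OE mice and 9 in control mice, and none was higher. Their summed linear level was 3575 to 4592 in NICD1-EC-OE DNFB ears, against 6475 to 8049 in NICD1-EC-OE vehicle ears, and 4226 to 7066 in control DNFB ears, against 7540 to 9194 in control vehicle ears. Chains called lower beside it were Col3a1, Col4a5, Col6a1, Col6a2 and Col7a1 in NICD1-EC-OE mice and Col5a3, Col6a1, Col7a1 and Col9a1 in control mice, and chains called higher were the same 4 in each. Higd1b had the largest difference of these markers, -2.51 ± 0.21 in NICD1-EC-OE mice and -2.89 ± 0.18 in control mice.

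Of 10 fibroblast markers tested, 2 were higher and 2 lower in NICD1-EC-OE mice, and 3 were higher and 3 lower in control mice. Lum had log2 differences of 1.69 ± 0.32 and 2.09 ± 0.26 in the same order, and Fap had -1.11 ± 0.21 and -0.57 ± 0.17. Their summed linear level was 1086 to 2377 in NICD1-EC-OE DNFB ears, against 1378 to 2081 in NICD1-EC-OE vehicle ears, and 2196 to 3861 in control DNFB ears, against 1323 to 2488 in control vehicle ears. It overlapped between treatments in both genotypes. Of 9 myeloid markers, 8 were higher in each genotype, and their sum was 756 to 899 in NICD1-EC-OE DNFB ears, against 148 to 224 in NICD1-EC-OE vehicle ears, and 719 to 2246 in control DNFB ears, against 162 to 291 in control vehicle ears. Of 10 keratinocyte markers, 1 was higher and 1 lower in NICD1-EC-OE mice, and 2 were higher and 2 lower in control mice.

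Of 6 chondrocyte markers tested, none passed with DNFB in NICD1-EC-OE mice and 2 were higher in control mice, Hapln1 by 0.64 ± 0.15 and Sox9 by 0.49 ± 0.19, and Matn1 and Matn3 were below the filter. Beside the genotype differences of the cartilage chains Col9a1 and Col11a2, 2 of these 6 markers were lower in NICD1-EC-OE DNFB ears as deposited and none with centring, where their median difference was -0.448. Of all probe sets tested, 35.1% were lower in that comparison as deposited and 8.12% with centring, so these counts say nothing particular about the markers. The summed linear level of the 6 markers was 201 to 286 in NICD1-EC-OE DNFB ears and 275 to 493 in control DNFB ears. Of the 12 endothelial markers, 6 were lower and 1, Eng, was higher with DNFB in NICD1-EC-OE mice, and 10 were lower and none higher in control mice. Pecam1 had log2 differences of -0.24 ± 0.09 and -0.21 ± 0.07, and Tek, an angiopoietin receptor, -1.45 ± 0.19 and -1.97 ± 0.16, in NICD1-EC-OE and control mice. The part of any of these cell types in the collagen differences was not tested.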

How the data were processed

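The authors deposited log2 values per probe set made by robust multi-array averaging (RMA) in Affymetrix Expression Console, per the submitters' processing notes; versions and options are not given in the sources used here. Each array was made from 1 ng of RNA, per the labels. No raw signal was used, and precision is limited by the number of arrays. Of 41345 probe sets, 23521 carried 1 gene symbol in the platform annotation, 1814 several and 16010 none. Probe sets with 1 symbol and a value above the array median (the 50th percentile) on at least 4 of 20 arrays were tested (14886, of 14178 genes). Group means and their contrasts were estimated with limma 3.58.1 (R 4.3.3), with Benjamini-Hochberg adjustment over all of them; the procedure was also tested on simulated data. Lists were summed as 2 to the power of each log2 value. Figures used matplotlib 3.10.9 in Python 3.11.15.

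Named genes were every tested member, up to 3 genes per list and comparison past the threshold with the largest difference, and Notch1. Pathway and marker genes are named for the DNFB comparisons, and for the genotypes they are counted. Col4a1, Col18a1, Adgrg1, Itga1, Xist, Eif2s3y, Pecam1, Eng, Twist2 and the markers at either end of a list's range were named after their values were seen. Genes most alike to Col1a1 are not reported, because the arrays fall into 4 separate groups and allow no pooled correlation. The members and lists were chosen with earlier results of these data known. Replicate numbers were not taken as pairs, since deviations of only 5 of 10 same-numbered pairs correlated above 0.1. Alternatives were median centring, quantile normalization, no filter, a filter at the 60th percentile, trended and robust variances, the groups compared alone, a replicate block, the mean of a gene's probe sets, and each array left out.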

Additional observations from a re-analysis of the deposited data

Results flagged for a closer look

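In 124 sets of arrays (31 chains in 4 groups), 7 held 1 array far from the others of its group by Dixon's criterion, which chance gives in about 1 of 20 sets. Col20a1 was 4.42 in NICD1-EC-OE DNFB replicate 4, against 3.28 to 3.47 in the other arrays of that group. Col4a5 was 2.79 in the same array, against 3.07 to 3.12. Col6a5 was 3.85 in NICD1-EC-OE DNFB replicate 1, against 2.96 to 3.06. Col6a3 was 6.05 in NICD1-EC-OE vehicle replicate 1, against 5.39 to 5.47, which is the array that overlapped with the DNFB range. Col6a1 was 6.78 in control DNFB replicate 5, against 6.34 to 6.49. Col12a1 was 5.10 in control vehicle replicate 1, against 4.15 to 4.50, and Col1a2 was 6.23 in control vehicle replicate 3, against 6.68 to 6.80.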

How the results depend on the processing

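The 4 chains higher and 4 lower with DNFB in control mice numbered 3 to 6 each when single arrays were left out. In NICD1-EC-OE mice the 4 higher numbered 2 to 4 and the 5 lower 3 to 6 without single arrays, and the 5 lower became 3 with centred arrays, with quantile normalization and with no filter on low values; the chains lost were Col3a1 and Col7a1 in each case. For NICD1-EC-OE against control in DNFB ears, the 11 lower became 4 with centred arrays and 4 with quantile normalization, and 2 and 1 chains were then higher; without single arrays 9 to 12 were lower and 0 higher. In vehicle ears, the 9 lower became 1 with centred arrays and 2 with quantile normalization, with 2 and 1 higher; without single arrays 6 to 11 were lower and 0 to 1 higher. The difference of the DNFB effects held 0 chains in each setting and 0 without single arrays, while over all probe sets it held 23 higher and 4 lower with trended and robust variances. Values that changed sign were all small: Col16a1 in DNFB ears between genotypes was 0.011 with quantile normalization, and without single arrays Col1a2 with DNFB in control mice ran from -0.1333 to 0.0131, Col17a1 in control mice from -0.0215 to 0.1941 and Col1a1 in NICD1-EC-OE mice from -0.0299 to 0.3484. The cause of these changes was not tested. With the replicate number as a fixed block, 4 chains were higher and 4 lower with DNFB in control mice, 4 higher and 5 lower in NICD1-EC-OE mice, 11 lower between genotypes in DNFB ears and 10 in vehicle ears; as a random block, 6 were lower with DNFB in NICD1-EC-OE mice. The fixed block gave arrays of the same number 1 shared effect across the genotypes, although these come from different mice. The random block kept the genotypes apart. Deviations of same-numbered arrays within a genotype correlated at 0.042 to 0.269. Of 10 pairs, 5 were above 0.1 and 7 were closest to their own number, as a hint from the data and not the design. Among calls between genotypes as deposited, Col2a1 in DNFB ears was lost without any 1 of 13 arrays (highest adjusted p = 0.105, limma), Col1a2 without NICD1-EC-OE DNFB replicate 3 (adjusted p = 0.0511, limma) and Col6a6 without NICD1-EC-OE DNFB replicate 1 or 4 (highest adjusted p = 0.0604, limma). In vehicle ears Col12a1 was lost without NICD1-EC-OE vehicle replicate 4 or control vehicle replicate 1, Col20a1 without NICD1-EC-OE vehicle replicate 1 or 2, Col5a3 without NICD1-EC-OE vehicle replicate 2, 3 or 4 or control vehicle replicate 3, and Col6a6 without NICD1-EC-OE vehicle replicate 2 or 4 or control vehicle replicate 6 (adjusted p = 0.0522 to 0.089 at their highest, limma). Further losses were Col6a3 in NICD1-EC-OE mice with no filter (adjusted p = 0.0617, limma), Col7a1 there with trended and robust variances (0.0714) and Col3a1 there with only the groups compared (0.0931).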
